A study of Homo sapiens with 4 samples.

Results

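The cytosolic ribosome, the machine that translates messenger RNA, was followed through the transcripts of its protein subunits in LN229 cells, an established human glioma line, after knockdown of *SOX2*. Ribosomal protein probes were chosen by symbol alone, as RPS (small subunit) or RPL (large subunit) followed by a number, or *RPLP0*, *RPLP1* and *RPLP2*, with no measured value used. The rule found 177 of the 33096 gene probes. They carry 83 gene symbols, 30 of the small and 53 of the large subunit. Probes of 1 Celera gene ID were averaged into 1 feature, which gave 100 of the 27777 features of the array, 36 for the small and 64 for the large subunit. The study compared cells transfected with siRNA against *SOX2* (Sox2 knockdown) with cells given a no-target control siRNA (mock knockdown), on 2 arrays per group. Both groups were the same line in the same medium, and the study describes the replicates as separate transient transfections. One label field names a colon line, SW620, where all others name LN229. *VIM*, an intermediate filament gene of mesenchymal and glial cells, read between 49.6 and 57.8 times the 75th percentile of its array, while the epithelial cadherin gene *CDH1* was at the floor of 0.01 on all 4 arrays.

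A ribosome contains 1 copy of nearly every ribosomal protein, so cells make these proteins in matched amounts from some of the most abundant messenger RNAs they hold. Many of these messages begin with a run of pyrimidines at the 5′ end, the terminal oligopyrimidine (TOP) tract, through which the kinase mTOR adjusts their translation. Several ribosomal proteins also act outside the ribosome, among them *RPL5* and *RPL11*, which bind MDM2 and stabilise p53. *SOX2* encodes an HMG-box transcription factor, active in neural stem cells and in glioma.

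The start sites of the genes showed a feature that the symbols did not use. RefSeq promoter sequences of GRCh38.p14 were found for 65 of the 83 symbols, as 81 promoters. A tract of at least 5 bases, all C or T and opening with C at the first transcribed base, was present in 55.6% of these promoters and in 4.07% of all 35114 promoters of the same length. Of the promoters of mitochondrial ribosomal protein genes, whose products build the separate ribosome of that organelle, 6.67% held it. The sequences below run from 15 bases before the start to the 15th transcribed base, 5′ to 3′, with such a tract in capitals. They show 3 parent genes beside a paralogue copy of each, and 4 genes whose array values are described further on.
RPL22 (chr1:6199581-6199610, minus strand): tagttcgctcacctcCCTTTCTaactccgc
RPL22L1 (chr3:170870181-170870210, minus strand): cgcggccgtagcttcCTCTCTgctctcgcg
RPS27 (chr1:153990747-153990776, plus strand): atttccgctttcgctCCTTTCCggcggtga
RPS27L (chr15:63157463-63157492, minus strand): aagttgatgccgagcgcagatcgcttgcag
RPL26 (chr17:8383179-8383208, minus strand): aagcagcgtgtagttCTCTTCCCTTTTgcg
RPL26L1 (chr5:172958714-172958743, plus strand): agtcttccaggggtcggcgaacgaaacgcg
RPS6 (chr9:19380222-19380251, minus strand): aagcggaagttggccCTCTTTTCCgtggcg
RPS25 (chr11:119018329-119018358, minus strand): tctgagcagcgcttcCTTTTTgtccgacat
RPL41 (chr12:56116618-56116647, plus strand): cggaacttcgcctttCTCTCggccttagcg
RPL37A (chr2:216498829-216498858, plus strand): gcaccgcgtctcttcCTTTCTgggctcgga
*RPL22* and its copy *RPL22L1* both start with a tract, while *RPS27L* and *RPL26L1* lack the one that their parents have at this start. The letters CATTGT, a core that SOX proteins can bind, were searched on both strands over the whole promoter. They occurred in 4 of the 81 ribosomal protein promoters (4.94%), against 10.8% of all promoters. The E-box CACGTG occurred in 6.17% against 7.26%. The letters CCGGAA, a core of ETS factors whose reverse strand TTCCGG can share bases with the end of a tract, occurred in 54.3% against 17.2%, and in 53.3% of the mitochondrial set. These are matches of letters in the reference, not sites shown to be in use, and binding was not measured on these arrays. The study mapped *SOX2* binding in LN229 cells by a separate assay, sequencing of immunoprecipitated chromatin, which was not used here.

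Ribosomal protein signals were among the brightest on every array. A signal is written as a multiple of the 75th percentile on its array. Features entered the comparison if their mean signal-to-noise ratio (S/N) exceeded 3 on the 2 arrays of either group, as 98 of the 100 did. Their median was 32.5, while that of all 18413 features compared was 0.579. Of the 185 features in the top 1%, 29 were ribosomal, and 87 of the 98 lay in the top 10%. The brightest was *RPL37* (hCG37339.4), which read 113 and 129 in mock cells and 112 and 102 after knockdown. *RPS27*, *RPS14* (hCG1640289.5), *RPS21* and *RPS2* (hCG2016250) followed, in that order of mean signal. Probes differ in how well they hybridise, so this is an order of signals and not of transcript amounts, and neighbours in it overlapped over the 4 arrays.

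**Figure D1:**
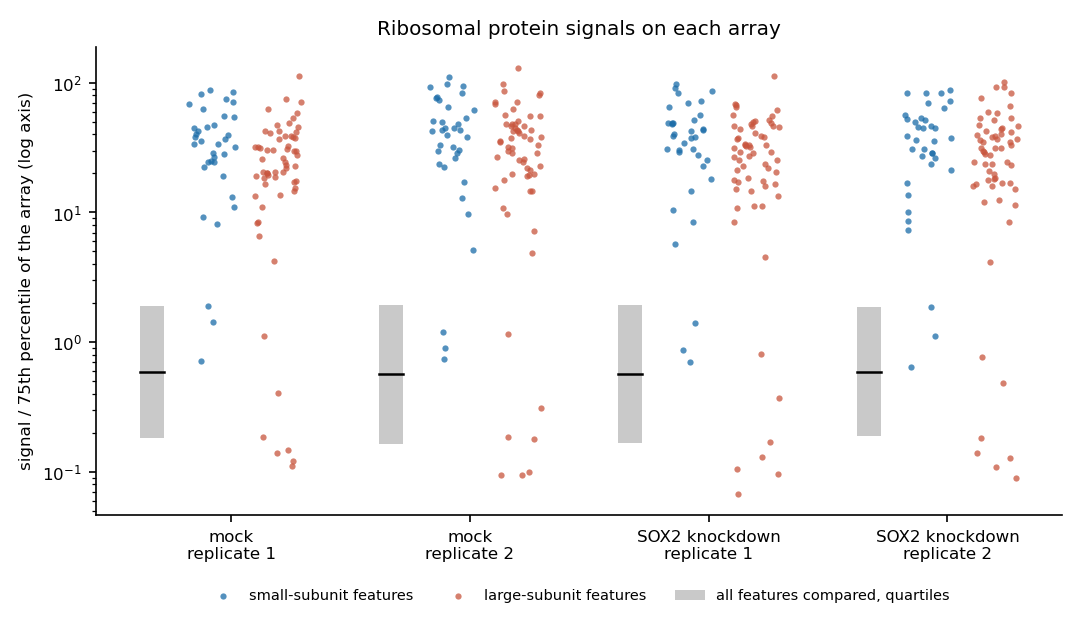
Scaled signal (log axis) of the 98 ribosomal protein features compared, 1 point per feature, on each of the 4 arrays, with small-subunit features in blue and large-subunit features in red. Grey bars are the quartiles and black lines the medians of all 18413 features compared, and most ribosomal points lie above these bars.

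At the other end, 10 of the 100 features had a mean signal under 1. For *RPL5*, *RPL7A*, *RPL11* and *RPL19* another feature of the same symbol was bright, so a dim probe of these genes is no low level of the gene. *RPL22*, *RPS3* and *RPL34* were dim on the only feature they have, as were *RPL3L* and *RPL10L*, copies that are known mainly from muscle and testis. With 1 or 2 probes each, a low transcript level and a weak probe cannot be told apart for these genes. The features *RPL11* (hCG1981735) and *RPL10* (hCG2008007) did not pass the S/N filter. The other *RPL10* feature (hCG1782706.1) holds 2 probes whose accession belongs to *NDUFS5*, a subunit of mitochondrial complex I, so the 1 probe assigned to *RPL10* by accession is the one that did not pass.

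The brightness also brought the readings near the top of the scanner's range. A flag value of 4 was carried only by raw readings of at least 1690881 units, which is read here as saturation, since the sources do not state its meaning. Ribosomal probes were 0.535% of the probes and between 21.0% and 24.6% of those with this flag. For 9 features, among them *RPL30*, *RPL31*, *RPL38*, *RPS21*, *RPS27* and the brighter features of *RPL37* and *RPS14*, every probe was flagged on all 4 arrays, and no fold is given for these. *RPS4X* and *RPS20* were flagged on both mock arrays, so that on this reading their mock level would be a lower bound. In scaled signal on mock replicate 2, an unflagged *RPL7* probe read 71.9 and the flagged *RPL30* probe 63.3, so the reading is not settled.

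The knockdown itself was seen in the targeted gene. *SOX2* read 0.452 and 0.679 in mock cells and 0.203 and 0.145 after knockdown. Both knockdown values lay below both mock values, with a log2 change of -1.69 (SE 0.28) and an adjusted p of 0.114 by limma. In this design of 2 arrays per group no feature of the array reached an adjusted p under 0.05.

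After *SOX2* knockdown the ribosomal protein transcripts as a group stayed close to their mock level. By the cutoff of the study's methods, a 2-fold difference of the replicate means, 1 of 98 features was higher and 0 were lower, where 1.48% of all features compared were higher and 0.902% lower (2.38% in either direction). At 1.5-fold there were 2, *RPL41* higher and *RPL5* (hCG22895.2) lower, against 9.86% of all features. By limma, 0 of 98 features had an adjusted p under 0.05 (0% of all). At an unadjusted p under 0.05 there were 3, all lower, where 17.2% of all features passed and 9.04% passed with a lower signal. Each array was scaled to its own signals, so a change in the whole amount of RNA per cell would not be seen. The log2 change was within 0.25 of zero for 83 of the 98 features and for 62.0% of all features. It was above 0 for 33 and below 0 for 65, with a median of -0.08, and the median over all features was 0.00. Leaving out the probes flagged 4 on any array left 79 features with the same median of -0.08.

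The 2 subunits gave close medians. Of the 36 small-subunit features 10 were above and 26 below 0, with a median log2 change of -0.08 and a range from -0.26 (*RPS25*) to 0.41 (*RPS6*). Of the 62 large-subunit features compared 23 were above and 39 below 0, with a median of -0.07 and a range from -0.78 to 1.44. The ends of the second range are a dim *RPL5* probe and an *RPL41* probe of low S/N, both described below. Mutations in a number of ribosomal protein genes cause Diamond-Blackfan anaemia, a failure of red cell production. Of a list of 15 such genes, which is not complete, 4 were above and 11 below 0, with a median of -0.12.

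**Figure D2:**
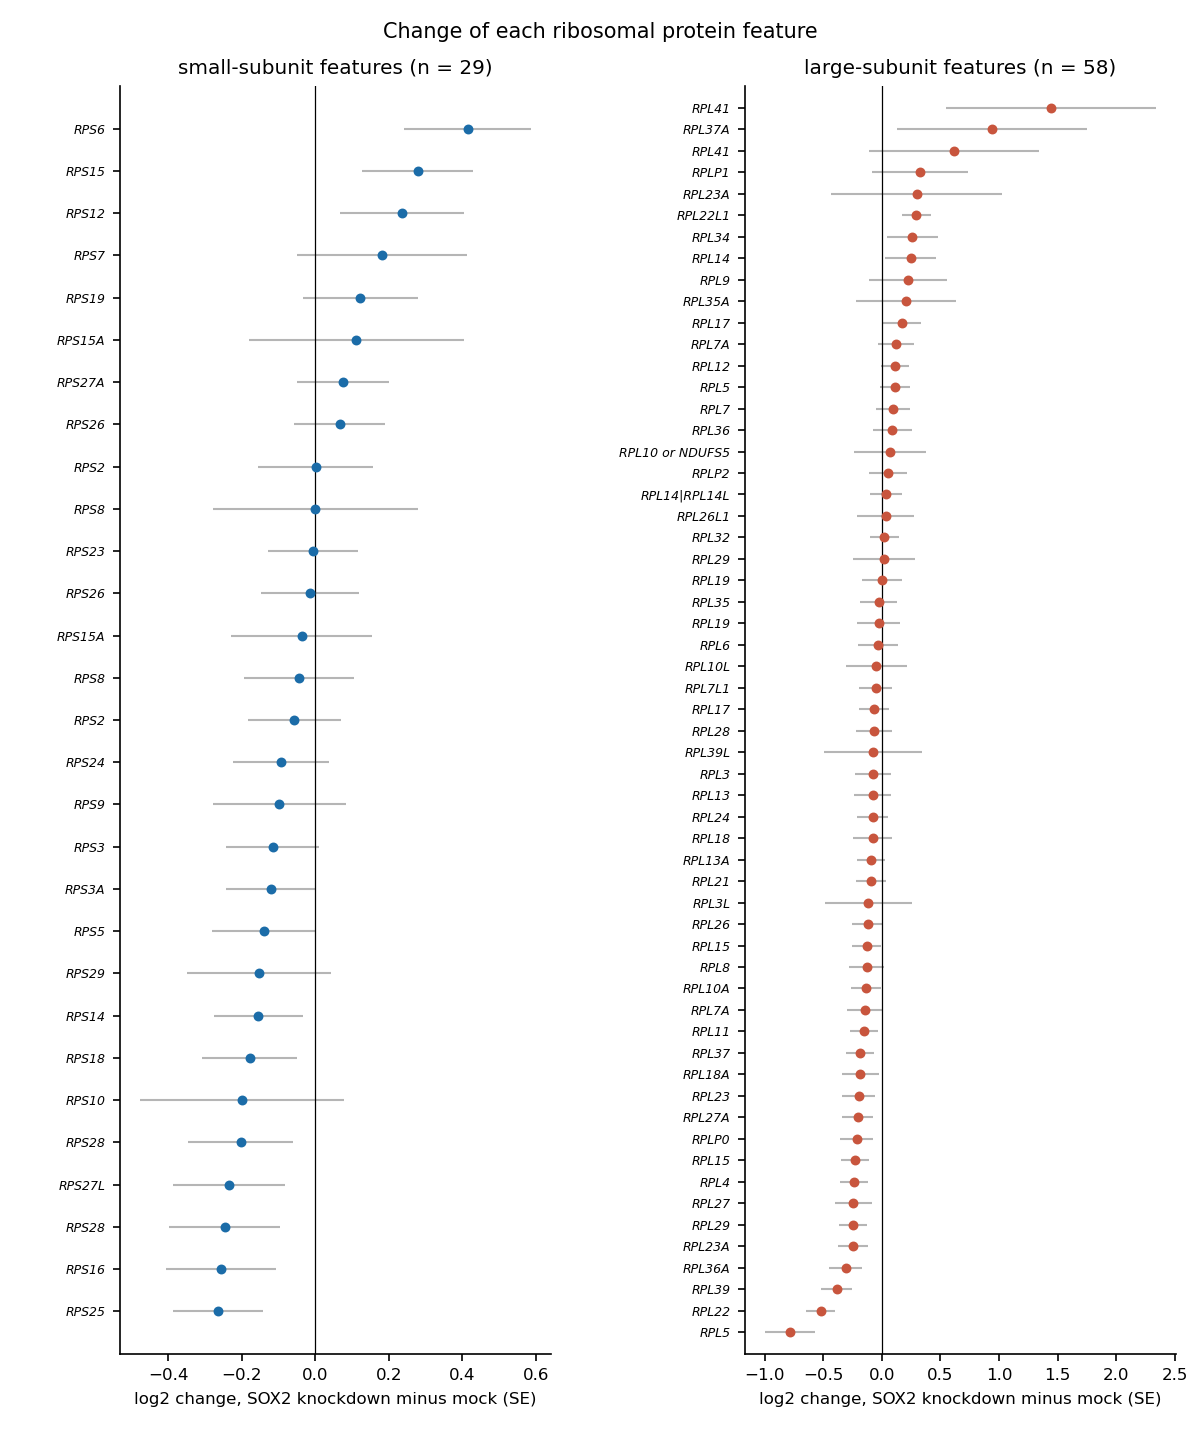
Log2 change (Sox2 knockdown minus mock knockdown, points) with its limma standard error (bars) for 29 small-subunit and 58 large-subunit features, ordered by change, on axes of different scale. The 11 features at the top of the scanner's range on both arrays of a group are left out. Most points lie within 0.25 of zero, and the widest bars belong to *RPL41*, *RPL37A* and *RPL23A*.

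The small downward median was seen against 1 of the 2 mock arrays. The median log2 difference of the members was 0.03 for knockdown replicate 1 against mock replicate 1 and -0.16 against mock replicate 2. For knockdown replicate 2 it was 0.00 against mock replicate 1 and -0.19 against mock replicate 2. The pairs share arrays and are not 4 replicates. The 2 mock arrays differed by more than any of the pairs did, with a median of 0.21 for mock replicate 2 over replicate 1. There 84 of 98 features (85.7%) were above 0, as were 53.2% of all features. The knockdown arrays differed by -0.05. Of the 98 features 68 were highest on mock replicate 2, which held for 31.4% of all features.

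Other bright genes leaned the same way. The 508 features of other genes with signals between 17.6 and 46.5, the quartiles of the ribosomal set, had medians of 0.00, -0.10, -0.05 and -0.14 in the same order of pairs. Between the mock arrays their median was 0.13. Without mock replicate 1 the median log2 change of the ribosomal features was -0.18, and without mock replicate 2 it was 0.01, with 52 features above 0 and 46 below. The medians over all features were 0.01 and -0.06 in the same order. The part of array brightness in this shift was not tested.

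**Figure D3:**
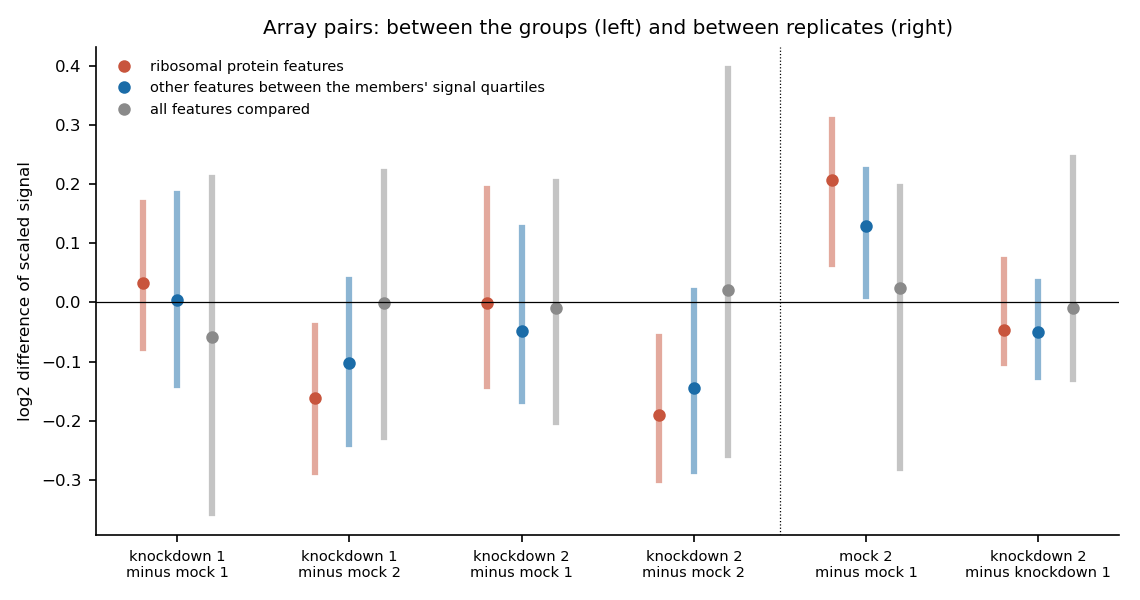
Log2 difference of scaled signal for the 4 pairs of a knockdown and a mock array (left of the dotted line) and the 2 replicate pairs (right). Points are medians and bars quartiles of the 98 ribosomal protein features (red), of 508 other features of like signal (blue) and of all 18413 features compared (grey). Red points lie below 0 against mock replicate 2 and near 0 against mock replicate 1.

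Counted by whether the arrays of the groups overlap, 31 features were lower on both knockdown arrays than on both mock arrays and 7 were higher. All features gave 25.6% lower and 21.6% higher, against 31.6% and 7.14% of the members. With 2 arrays per group the count carries no test, and the high readings on mock replicate 2 lie beside it.

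Among the features with clear S/N on all 4 arrays, *RPL22* had the most negative change. *RPL22* is a large-subunit protein whose loss is tolerated by cells, and it restrains the splicing and the level of its own copy, *RPL22L1*. *RPL22* read 1.11 and 1.15 in mock cells and 0.811 and 0.763 after knockdown. The groups did not overlap, with a log2 change of -0.52 (SE 0.12) and an adjusted p of 0.164 by limma. The difference lay in 1 of its 2 probes, which read 2.02 and 2.12 against 1.44 and 1.36. The dimmer probe read 0.208 and 0.170 against 0.184 and 0.169, and there the groups overlapped.

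*RPL22L1* was higher. It read 6.59 and 7.19 in mock cells and 8.38 and 8.51 after knockdown, higher on both. The log2 change was 0.30 (SE 0.13), with an adjusted p of 0.344 by limma. Neither gene passed the test, and the opposite direction within this pair was noticed after the values were seen.

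The other most negative changes were spread over both subunits. *RPL39*, a short protein of the exit tunnel, read 75.1 and 82.8 in mock cells and 62.1 and 58.7 after knockdown. Its groups were apart on each of its 2 probes, with a log2 change of -0.38 (SE 0.13) and an adjusted p of 0.257 by limma. Some of its readings carried flag 4, both probes on mock replicate 1, 1 on mock replicate 2 and 1 on knockdown replicate 2, so the mock level may be understated. *RPL36A*, a large-subunit protein near the exit site of transfer RNA, read 19.0 and 19.9 against 14.6 and 16.9. Its groups did not overlap, and its log2 change was -0.31 (SE 0.14, adjusted p 0.367 by limma).

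Small-subunit features with lower signals changed less. *RPS25*, needed for translation from certain viral internal entry sites, read 42.8 and 44.7 in mock cells and 37.3 and 35.6 after knockdown, a log2 change of -0.26 (SE 0.12). *RPS16* read 26.6 and 31.7 against 25.2 and 23.5, a change of -0.26 (SE 0.15). *RPS28* (hCG23961.3) read 19.0 and 22.6 against 18.2 and 16.8, a change of -0.25 (SE 0.15). In each the highest knockdown value was below the lowest mock value, and the adjusted p by limma lay between 0.383 and 0.504.

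*RPL5* gave different answers on different probes. The large-subunit proteins *RPL5* and *RPL11* form, with 5S ribosomal RNA, the particle that binds MDM2. The bright *RPL5* feature (hCG2028912) read 17.2 and 15.6 in mock cells and 17.6 and 17.8 after knockdown, slightly higher on both, with a log2 change of 0.11 (SE 0.13). The dim feature hCG22895.2, whose single probe is shared with the neighbouring gene *FAM69A*, read 0.185 and 0.186 against 0.130 and 0.0896. This is the most negative change of all members, -0.78 (SE 0.22, adjusted p 0.200 by limma), on a probe that cannot be assigned to *RPL5* alone and whose S/N was 2.94 on knockdown replicate 1. *RPL11* (hCG1739238.2) read 32.0 and 32.9 against 29.2 and 29.1, lower on both knockdown arrays by 0.15 on the log2 scale (SE 0.12).

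*RPS6*, the substrate of the S6 kinases below mTOR, had the most positive change of the small subunit. It read 33.6 and 43.1 in mock cells and 48.8 and 52.8 after knockdown. Both knockdown values were the higher ones, with a log2 change of 0.41 (SE 0.17) and an adjusted p of 0.339 by limma. Its 2 probes differed. One read 21.3 and 43.9 against 54.5 and 57.9, while the other read 45.9 and 42.4 against 43.0 and 47.7 and its groups overlapped. The first probe had an S/N of 17.7 on mock replicate 1, its lowest reading. On mock replicate 2 and knockdown replicates 1 and 2 it was 48.1, 49.1 and 83.3. Low readings of low S/N on mock replicate 1 are described below for several large-subunit features.

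**Figure D4:**
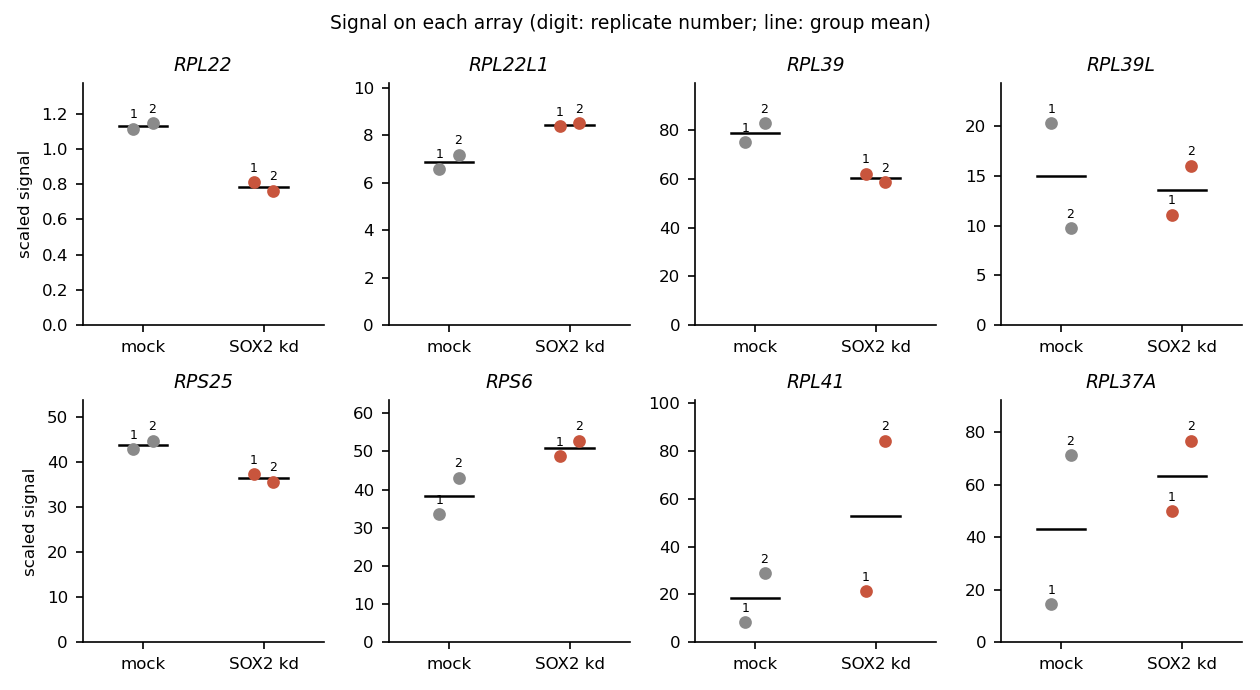
Scaled signal (axes from 0) of 8 ribosomal protein features on the 2 mock and 2 knockdown arrays (*SOX2* kd), with points labelled by replicate number and lines at the group means. *RPL41* is the feature hCG40086.2. The groups are apart for *RPL22*, *RPL22L1*, *RPL39*, *RPS25* and *RPS6*, and overlap for *RPL39L*, *RPL41* and *RPL37A*.

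The 1 feature past 2-fold was *RPL41* (hCG40086.2). *RPL41* is the smallest ribosomal protein, a peptide of the large subunit. It read 8.50 and 28.8 in mock cells and 21.4 and 84.2 after knockdown, so that the groups overlapped and replicates of 1 group differed by more than the group means. The ratio of means was 2.83, and the log2 change was 1.44 (SE 0.90, adjusted p 0.515 by limma). Its S/N was 3.75, 8.59, 6.02 and 71.9 on mock replicates 1 and 2 and knockdown replicates 1 and 2, where the median S/N of the members was between 57.3 and 81.8. The highest reading carried flag 4.

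The same pattern of arrays recurred in other large-subunit features. The second *RPL41* feature (hCG1781727.1) read 23.0 and 87.2 in mock cells and 50.7 and 92.8 after knockdown. *RPL37A* read 14.6 and 71.3 against 49.98 and 76.7, and *RPL23A* (hCG28201.2) read 27.6 and 98.01 against 43.8 and 93.2. All were lowest on mock replicate 1 and overlapped between the groups. The stalk protein gene *RPLP1*, which helps to recruit elongation factors, read 31.4 and 68.4 against 64.7 and 52.1 and was also lowest there. *RPL23A* has a second feature, hCG1988529.1, on which the values were 17.6 and 19.6 against 16.02 and 15.3, with no such spread.

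On mock replicate 1, where they read lowest, these features had low S/N for their brightness. The S/N there was 7.33 for *RPL41* (hCG1781727.1), 11.1 for *RPL37A*, 16.2 for *RPL23A* (hCG28201.2) and 9.08 for *RPLP1*, where the member median was 57.3. On knockdown replicate 2 it was 68.9, 85.2, 90.0 and 27.0 in the same order, where the member median was 81.8. The *RPLP1* values are means of 2 probes. Its dim probe had an S/N of 0.54 and 2.73 on these 2 arrays, and its bright probe 17.6 and 51.3. Between the mock arrays 7 of 98 features lay over 1 log2 unit apart, as did 3.44% of all features. The others of the 7 were *RPL35A*, which was also lowest on mock replicate 1, and *RPL39L*, which was highest there. On mock replicate 2 and knockdown replicate 2 the bright probe of each of the 4 features of low S/N carried flag 4, that of *RPLP1* also on knockdown replicate 1, so changes that rest on these arrays compare readings at the top of the range. Without mock replicate 1, *RPL37A*, *RPL23A* (hCG28201.2), *RPLP1* and the second *RPL41* feature turned negative and 0 members passed 2-fold, where 4.90% of all features did. Without mock replicate 2, 4 members passed it, *RPL23A*, *RPL37A* and both *RPL41* features, against 3.54% of all features.

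**Figure D5:**
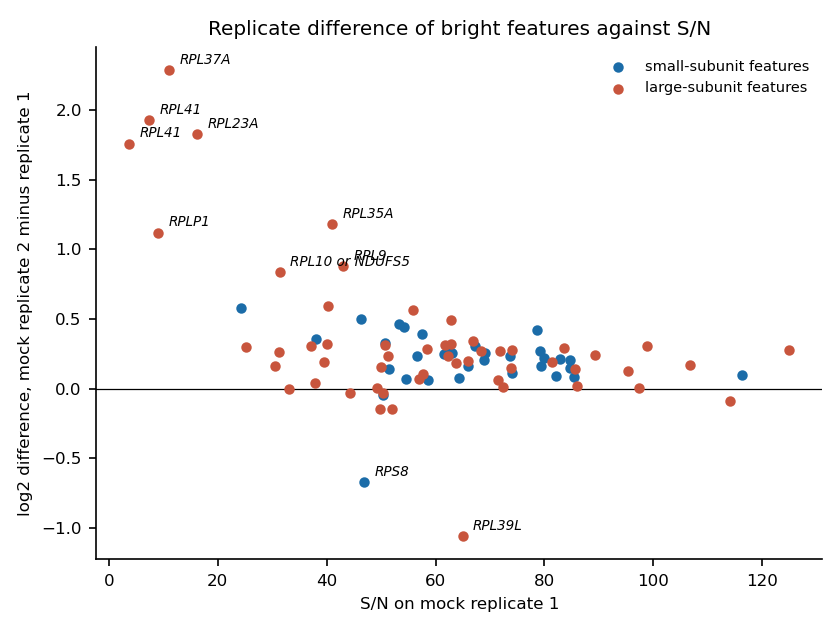
Log2 difference between the mock arrays (replicate 2 minus replicate 1) against the S/N on mock replicate 1, for the 87 ribosomal protein features with a mean signal of at least 5. Features over 0.6 log2 units apart are named. Both axes use mock replicate 1, so they are not independent. The features with an S/N under 20 are *RPL41* (2 features), *RPL37A*, *RPL23A* and *RPLP1*, and each lies over 1 log2 unit above 0.

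The other stalk genes gave steadier readings. *RPLP0*, the base of the stalk and a common reference gene, read 18.6 and 21.3 in mock cells and 17.9 and 16.5 after knockdown. It was lower on both, by 0.22 on the log2 scale (SE 0.14), with an adjusted p of 0.537 by limma. *RPLP2* read 39.1 and 48.5 against 45.5 and 44.8, and its groups overlapped (log2 change 0.05, SE 0.16).

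Of the 8 paralogue copies on the array, 2 were above and 6 below 0. Of the 7 parents compared 1 was above and 6 below 0, among these *RPS27*, which was at the top of the scanner's range, and *RPL10* did not pass the S/N filter. *RPS27L*, a p53 target, read 32.1 and 38.4 in mock cells and 31.1 and 28.7 after knockdown. It was lower on both knockdown arrays, with a log2 change of -0.23 (SE 0.15, adjusted p 0.536 by limma). *RPL39L*, a copy best known from testis and tumours, read 20.3 and 9.78 against 11.1 and 16.1, so that replicates differed by more than the groups. Its parent *RPL39* is described above. *RPL26L1* read 13.4 and 19.8 against 15.2 and 18.4, *RPL7L1* read 4.21 and 4.84 against 4.53 and 4.17, and both overlapped. The parents *RPL3* (log2 change -0.08, SE 0.16), *RPL7* (0.10, SE 0.14) and *RPL26* (-0.12, SE 0.13) were within 1 SE of zero.

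A few proteins of the ribosome carry symbols that the rule misses. *RACK1*, a scaffold on the head of the small subunit, read 48.1 and 47.5 in mock cells and 37.8 and 37.9 after knockdown. Its groups were apart by more than its replicates were, with a log2 change of -0.34 (SE 0.12, adjusted p 0.271 by limma). *RPSA*, *FAU* and *RPL36AL* overlapped between the groups, with log2 changes from -0.06 to 0.15.

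The factors that build and run the ribosome centred near zero or above it, without a feature past the adjusted threshold. Of 43 translation factors compared 21 were above and 22 below 0, with a median log2 change of 0.00. Features shared with a ribosomal protein gene were left out of this list. *EIF5*, which triggers GTP hydrolysis at the start codon, read 2.19 and 2.81 in mock cells and 4.47 and 3.49 after knockdown, a log2 change of 0.67 (SE 0.21). At the other end *EIF4G3*, a scaffold of the cap-binding complex, read 1.19 and 1.31 against 1.05 and 0.901, a change of -0.36 (SE 0.15), and in both genes the groups were apart.

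Of 51 ribosome biogenesis factors 35 were above and 16 below 0, with a median of 0.10. *TBL3*, a component of the early small-subunit precursor, read 0.230 and 0.221 in mock cells and 0.173 and 0.158 after knockdown, lower on both, a change of -0.45 (SE 0.13). *NLE1*, which acts in large-subunit maturation, read 0.334 and 0.546 against 0.540 and 0.632, a change of 0.45 (SE 0.28) with groups that overlapped. Of 14 genes of RNA polymerase I transcription, which makes ribosomal RNA, 11 were above and 3 below 0, with a median of 0.15. *UBTF*, which binds the ribosomal DNA promoter, read 0.161 and 0.184 in mock cells and 0.392 and 0.297 after knockdown. This was a ratio of means of 2.001 and a log2 change of 0.99 (SE 0.19, adjusted p 0.131 by limma), on a dim feature that also carries the symbol *FXYD2*. *POLR1B*, a core subunit, read 0.712 and 0.748 against 0.624 and 0.594, a change of -0.26 (SE 0.12). Read beside the ribosomal proteins (33 above, 65 below, median -0.08), the biogenesis and polymerase I sets had medians on the other side of zero. The difference between the lists has no test here. The 508 features of other genes between the signal quartiles of the ribosomal set also had a negative median, -0.066. Most features of the biogenesis and polymerase I lists were dimmer than that range, and the part of signal level in the difference was not tested.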

How the data were processed

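Total RNA of LN229 cells was biotin-labelled and hybridised to 1-colour Applied Biosystems Human Genome Survey arrays, 2 of mock and 2 of Sox2 knockdown. The deposited scanner files give normalized signal intensities on a linear scale with an S/N score, and the scanner software and its version are not given in the sources used here. A second table that the authors deposited holds their processed values as linear ratios. A rule that scales each array's scanner signal by 1 constant and divides it by the median of that probe, or by a fixed value if dim, returned 100% of them within 1%. The column medians were 0.102 on all 4 arrays, so scale, centring and direction were settled.

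The 210 probes that carried flags from 5000 upwards on some array were left out. Probes of 1 Celera gene ID were averaged, but 38 of the 100 member IDs also hold probes of other names, 57 in all (a *CDH1* probe with *RPL23A*, for example), and these were kept as features of their own. Each array was divided by its 75th percentile, floored at 0.01 and taken to log2. Features with S/N over 3 on both arrays of a group were compared (18413). Calls were the 2-fold cutoff of linear means and limma 3.58.1 in R 4.3.3 (lmFit, eBayes, two-sided, without a block), tested on simulated data. The p-values were adjusted by Benjamini-Hochberg across the 18413 features. Tables were made in Python 3.11.15. The number of arrays limits the precision, and p-values rest on 2 transfections per group.

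Of the 177 probes, 129 have an accession that RefSeq gives to the same gene, 46 have none that matched and 2 belong to another gene. Genes of other lists were matched by symbol or by a synonym that 1 RefSeq gene alone holds. The members, the gene lists and the rule for named genes were chosen with earlier results of these data known. That rule took *SOX2*, the 5 members of highest signal, the 6 largest changes per direction with S/N over 3 on all 4 arrays, members past 2-fold, the 3 largest replicate differences, *RPLP0*, *RPLP1*, *RPLP2*, *RPS6*, *RPL5*, *RPL11*, the copies and their parents, and the largest changes of the other lists. *RPS4X*, *RPS20*, *RPL35A* and the dim features were named after their values were seen. The files name no build, so coordinates are those of the RefSeq promoter table alone. Some genes are not reported here by name.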

Additional observations from a re-analysis of the deposited data

How the results depend on the processing

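The 98 features compared kept a median log2 change below 0 under every scaling, floor, filter and probe setting tried. It ran from -0.12 with median scaling to -0.023 with normexp, where the medians over all features were -0.037 and -0.042. The median of the members minus that of all features was -0.079 with median scaling, as in the main setting, and 0.019 with normexp. By pair the median of the members was 0.033 (knockdown replicate 1 against mock replicate 1), -0.16, 0.00 and -0.19 (knockdown replicate 2 against mock replicate 2). Leaving out 1 array gave -0.18 to 0.015 for all members, -0.16 to 0.010 for the small and -0.20 to 0.015 for the large subunit. The count past 2-fold ranged from 0 to 4 when 1 array was left out (2 without knockdown replicate 1, *RPL41* and *RPL5*, and 0 without knockdown replicate 2), where between 3.33% and 4.90% of all features passed, was 0 without probes flagged 4 and 2 at a 1.5-fold cutoff. The count with an adjusted p under 0.05 by limma was 2 with median scaling, with no further scaling and with the authors' table, in each case *RPL41* (hCG40086.2) and *RPL37A*, and 0 under the other settings. Of all features 3.62%, 3.52% and 3.47% passed under these 3 settings, so 2 of 98 is below that share, and 1.30% passed with a variance trend, where 0 members did. Under these 3 settings the fit gave every feature the same SE, 0.28, and the adjusted p was at most 8.94e-05 for *RPL41* and between 0.0372 and 0.0428 for *RPL37A*, both of which overlap between the groups, while without them it was 0.515 and 0.666. With the replicate number as a block the count was 0, with 2 members at an unadjusted p under 0.05 in place of 3. Same-numbered arrays deviated oppositely (r = -0.50 across features), which cannot tell whether they shared a transfection round. With the numbers crossed the counts were 0 and 5. Averaging all probes of a gene ID gave 31 features above and 68 below 0, with 1 past 2-fold. The last setting, that without flagged probes and the crossed pairing were chosen after seeing the data.

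Of 28 named features with a change, 13 kept their sign under every setting and 15 did not, the cause being not tested. *RPS2* (hCG2016250), at 0.00, was -0.038 with median scaling, -0.033 with quantile normalization and -0.029 with no further scaling. *RPL26L1* was -0.0061 with median scaling and -0.085 in the authors' table, and *RPL7* was -0.0064 there and -0.13 without flagged probes. Under normexp *RPLP2* was -0.018, *RPL11* 0.011, *RPL7L1* 0.058, *RPL10L* 0.24, *RPL39L* 0.023 and *RPL26* 0.027. When 1 array was left out, the change ran from -0.15 to 0.15 for *RPS2* (hCG2016250), -0.20 to 2.08 for *RPL37A*, -0.35 to 1.58 for *RPL41* (hCG1781727.1), -0.24 to 0.88 for *RPLP1*, -0.62 to 1.21 for *RPL23A* (hCG28201.2), -0.10 to 0.21 for *RPLP2*, -0.33 to 0.23 for *RPL10L*, -0.25 to 0.31 for *RPL26L1*, -0.60 to 0.45 for *RPL39L*, -0.020 to 0.21 for *RPL7*, -0.15 to 0.048 for *RPL7L1*, -0.21 to 0.058 for *RPL3* and -0.63 to 0.40 for *RPL3L*.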

Other observations

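Among genes around the cytosolic ribosome none passed an adjusted p under 0.05 by limma. Of 16 growth regulators of ribosomal protein messages compared, 8 were above and 8 below 0, with a median log2 change of 0.05. *SESN2*, a leucine sensor that holds back mTOR under amino acid stress, read 3.84 and 5.57 in mock cells and 18.8 and 21.6 after knockdown, a ratio of means of 4.29 (adjusted p 0.0850 by limma). *DDIT4*, another brake on mTOR, read 1.95 and 2.74 against 5.63 and 5.30, a ratio of 2.33 (adjusted p 0.114 by limma). *MYC*, a driver of ribosome production, read 0.858 and 1.03 against 1.57 and 1.54, and the groups of all 3 were apart. *MLST8*, a subunit of the mTOR complexes, was the most negative, at 0.639 and 0.717 against 0.486 and 0.497.

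The mitochondrial ribosome, built from its own set of nuclear genes, was balanced. Of 76 features 41 were above and 35 below 0, with a median of 0.03, and MRPS18A read 6.71 and 6.49 on the mock arrays against 4.35 and 4.18 on the knockdown arrays. *MRPL45* was the most positive, at 0.919 and 1.05 against 1.44 and 1.43. All 4 host transcripts of small nucleolar RNAs compared were above 0. Among them *SNHG12* read 1.62 and 1.46 against 2.88 and 2.55, and *GAS5*, which itself starts with a TOP tract, read 7.76 and 8.38 against 10.9 and 11.1. Of 9 genes of ribosome quality control, 5 were above and 4 below 0, and *LTN1*, a ubiquitin ligase for stalled chains, read 0.276 and 0.273 against 0.431 and 0.409. *HBS1L*, a rescue factor of stalled ribosomes, read 0.527 and 0.553 against 0.481 and 0.466. Of the marker lists, 8 of 9 glioma and mesenchymal genes and 7 of 14 colon epithelial genes were compared, and of the latter only *KRT18*, which many cell types express, read above 1. In the glioma and mesenchymal list 6 were above and 2 below 0, with a median log2 change of 0.07 and 1 past 2-fold higher. The most negative there was *TNC*, a matrix protein, at 4.11 and 5.04 against 4.07 and 2.91.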
